A study of Mus musculus with 3 samples.

Results

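Cytochromes P450, glutathione transferases and aldehyde dehydrogenases are the main enzyme families that oxidise and conjugate foreign compounds and reactive products of the cell's own metabolism. Cytochromes P450 insert oxygen into drugs, fatty acids, sterols and retinoids with electrons from reductase partners. Glutathione transferases join glutathione to electrophiles, their microsomal relatives also act on leukotrienes and lipid peroxides, and aldehyde dehydrogenases turn aldehydes into acids. In dendritic cells (DC) the best known of these reactions is the oxidation of retinaldehyde to retinoic acid, a signal for gut homing and regulatory T cells. The 114 genes described here are those whose platform symbol begins with Cyp and a digit (Cyp51 left out), with Gst, a class letter (a, k, m, o, p or t) and a digit, with Mgst and a digit, or with Aldh and a digit, on a probe set listed for a single gene. They held 162 of the 45101 probe sets of the array. The choice used no signal. Another 7 probe sets that list such a gene together with others were left out.

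The arrays held RNA of plasmacytoid DC (pDC), which are known for secreting type I interferon, and of CD8+ and CD11b+ conventional DC (cDC), which present antigen to T cells. All came from the spleens of untreated female C57bl/6 mice aged 6 to 8 weeks by magnetic depletion of T and B cells and flow cytometric sorting, and RNA was pooled over 5 to 8 mice. Each cell type has 1 Affymetrix array and no replicate, so no spread between samples exists, no test was run, and the cell type cannot be told apart from its mice, sort, amplification and hybridization. Each gene is represented by the probe set whose log2 signal (log2 of the deposited intensity) averaged highest over the arrays, and is called higher where it was at least 2-fold brighter and above a background level of 111. That level is the 95th percentile of 87 chemosensory receptor probe sets, and a fold against an array below it is written as a bound. The number of arrays limits the precision of every value.

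The defining genes of the labels were mostly highest on their own array. All 9 measured pDC markers were at least 2-fold higher in pDC than in either cDC subset, and all 7 CD8+ cDC markers were higher in CD8+ cDC than in pDC and than in CD11b+ cDC. Of the 7 CD11b+ cDC markers, 5 were higher in CD11b+ cDC than in pDC, but Cd4 (37302 in pDC and 14501 in CD11b+ cDC) and Mgl2 (778 in pDC and 93.7 in CD11b+ cDC) were lower. Siglech was 106310 in pDC, 53.4 in CD8+ cDC and 52.2 in CD11b+ cDC, Xcr1 was above background on the CD8+ cDC array alone, and Itgam on the CD11b+ cDC array alone. None of the measured T cell (4), NK cell (3), mast cell (4) or hepatocyte (3) marker genes exceeded background on any array. Of other cell types, 2 of 5 B cell markers did (Ms4a1 at 223, 19147 and 11047 and Cd79b at 10103, 381 and 4026 in pDC, CD8+ cDC and CD11b+ cDC, with Cd79a and Pax5 at background), 2 of 3 erythroid markers, and 3 of 4 stromal and endothelial markers (Cdh5 at 11542 in pDC and at background in both cDC subsets). The neutrophil markers were above it for 6 of 6 genes in pDC (summed signal 2543), 5 in CD8+ cDC (1252) and 6 in CD11b+ cDC (16516), and the macrophage and monocyte markers for 8, 9 and 9 of 9 genes (42863, 99135 and 225468). Signal at the 3' end over the 5' end of Actb was 5.71, 4.08 and 2.91 in pDC, CD8+ cDC and CD11b+ cDC, and that of Gapdh 16.2, 17.6 and 9.68. The part of these signals in the results was not tested. When the arrays were instead scaled on the hybridization spike-in controls, the median log2 difference of all genes was 0.65 for pDC minus CD8+ cDC, -0.30 for pDC minus CD11b+ cDC and -0.95 for CD8+ minus CD11b+ cDC, so differences are relative to the bulk of genes.

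Most of these enzymes gave no signal above background in splenic DC. Above it on at least 1 array were 41 of the 114 genes (36.0%), against 60.5% of all 18194 genes, and 33 were above it on all 3. By array the counts were 37 in pDC, 38 in CD8+ cDC and 35 in CD11b+ cDC. The families differed in this respect, with 17 of 72 cytochrome P450 genes, 10 of 19 glutathione transferases, 3 of 3 microsomal glutathione transferases and 11 of 20 aldehyde dehydrogenases above background on any array. Of the 43 genes in P450 families 1 to 3, the families of most drug and xenobiotic metabolism, 6 exceeded background, and their highest signal was 268. Cyp1a1, Cyp1a2, Cyp1b1 and Cyp2e1 were at background in all cell types. The remaining P450 families had 11 of 29 genes above background and held all 7 P450 genes that reached 4 times background on any array. A probe set at background cannot be told from an absent transcript, and in pooled cells fewer expressing cells and less RNA per cell cannot be told apart.

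**Figure D1:**
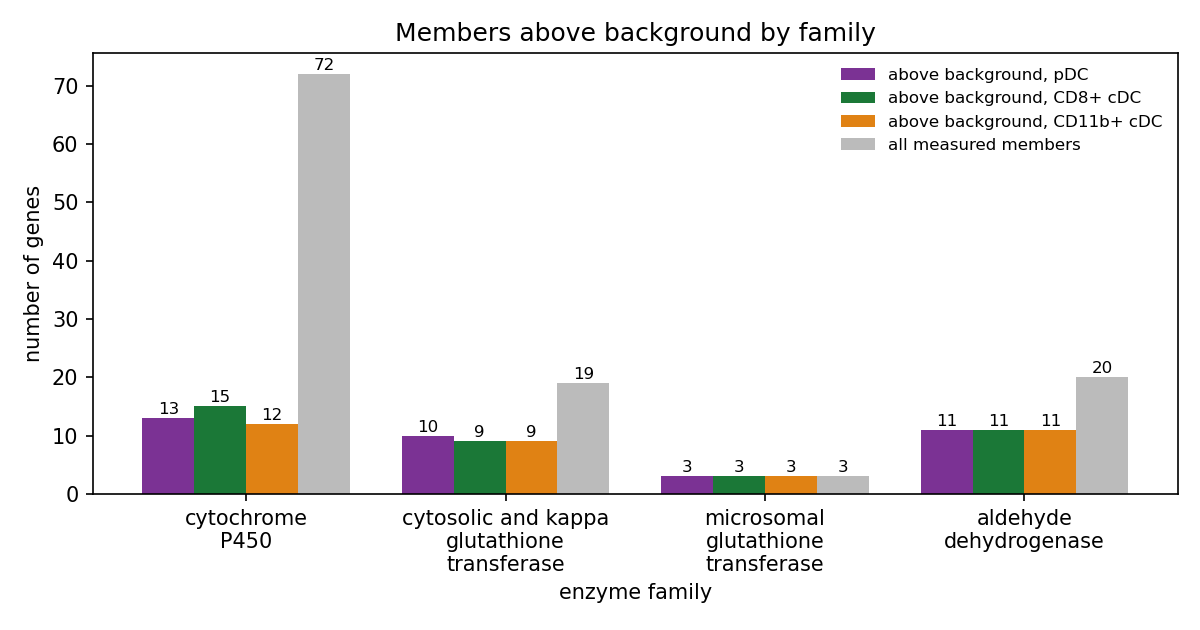
Number of genes (vertical axis) of each enzyme family above background on the pDC, CD8+ cDC and CD11b+ cDC array, with all measured members as the last bar. P450 genes were above background for 13, 15 and 12 of 72, whereas 11 of 20 aldehyde dehydrogenases were above it on each array.

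Signals at the low end were nearly equal on the arrays. Member probe sets at background on all arrays spanned a median of 0.02 on the log2 scale over the 3 arrays, and the same held for all 22273 such probe sets (0.02). Some members just above background were as flat. Cyp2j9 read 152 in pDC, 154 in CD8+ cDC and 151 in CD11b+ cDC, Mgst3 read 288, 289 and 297, and Cyp3a13 was above background on the CD8+ cDC array alone at 111.3, next to 105.6 in pDC and 106.4 in CD11b+ cDC.

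Differences ran in both directions in every pair of cell types. Between pDC and CD8+ cDC, 11 of the 40 members that exceeded background in at least 1 of the pair had more signal in pDC (16.0% of all genes that passed the same filter did) and 9 had less (14.8%), against 30.8% of all genes in either direction. Between pDC and CD11b+ cDC, 9 of 39 were higher in pDC (15.0% of all genes) and 7 lower (14.3%), against 29.3% in either direction. Between CD8+ and CD11b+ cDC, 6 of 39 were higher in CD8+ cDC (9.84%) and 5 lower (10.3%), against 20.1% in either direction. Median log2 differences of the members were 0.06, -0.00 and 0.03 in these pairs, and those of all genes 0.00, 0.01 and 0.01. With spike-in scaling the member medians became 0.76, -0.34 and -0.67, and the counts 15 higher and 4 lower for pDC against CD8+ cDC, 9 and 9 for pDC against CD11b+ cDC, and 2 and 13 for CD8+ against CD11b+ cDC. Over all genes, the share of calls that were higher moved with this scaling to 77.6% for pDC against CD8+ cDC (51.9% on the deposited scale), 34.7% for pDC against CD11b+ cDC (51.2%) and 7.82% for CD8+ against CD11b+ cDC (49.0%). Any 2 of the pairs share an array.

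**Figure D2:**
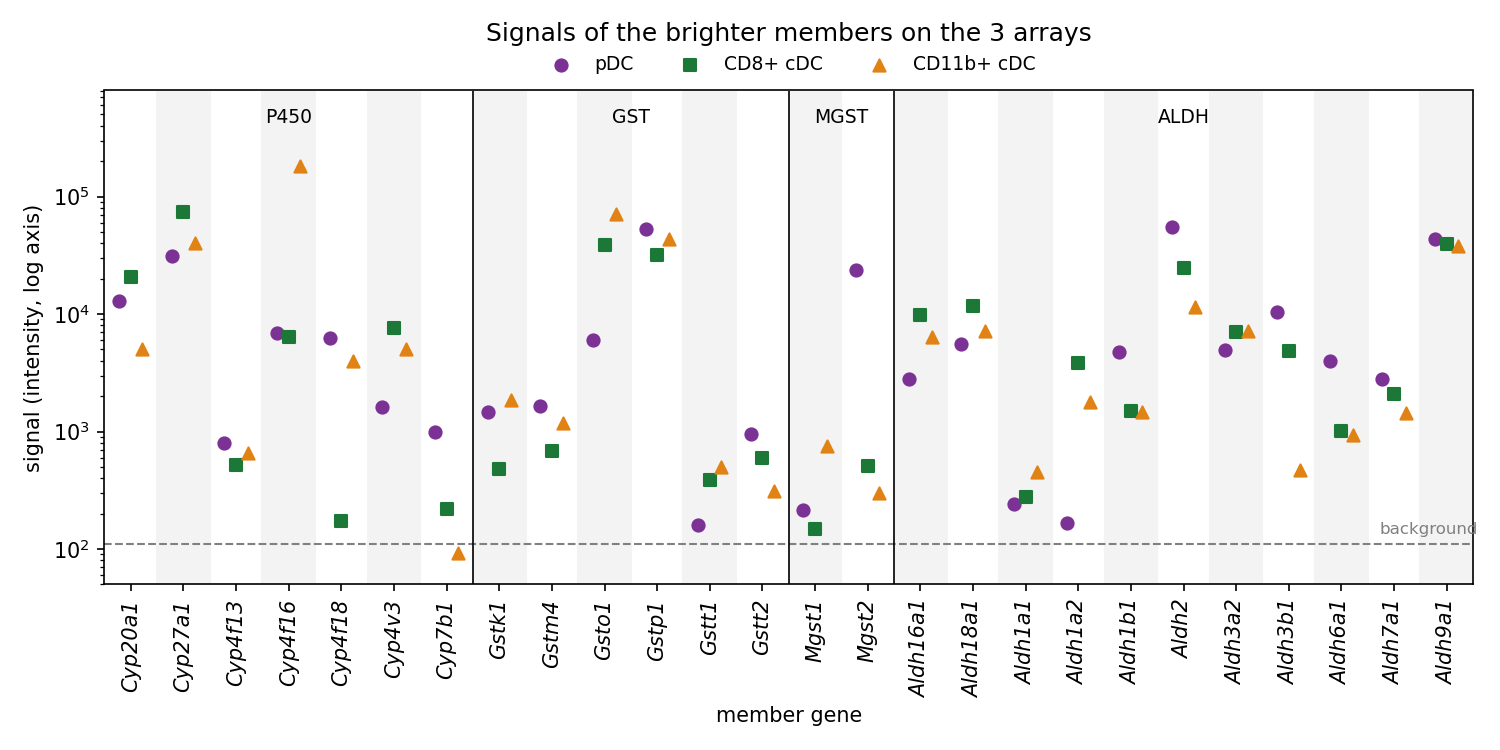
Signal (log axis, intensity) of the 26 members that reached 4 times background on any array, for pDC, CD8+ cDC and CD11b+ cDC, with the background level as a dashed line. Mgst2 stands at 23914 in pDC and at 508 and 302 in CD8+ and CD11b+ cDC, and Cyp4f16 at 180909 in CD11b+ cDC. Levels of different genes come from different probes and are not compared.

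The largest difference of each family was at Mgst2, Cyp4f18, Aldh1a2 and Gsto1, whose upstream sequence is printed here for reference in the results that follow. The sequences are RefSeq's on GRCm38.p6, from 250 bases before to 50 bases after the gene start, and 85 of the 114 genes had an entry. Each is read 5' to 3' on the gene's strand. Capitals mark 3 motifs searched on both strands: TGACNNNGC, the antioxidant response element bound by Nrf2; GCGTG, the core of the xenobiotic response element bound by the aryl hydrocarbon receptor; and CAGGTG, an E-box bound by E proteins such as Tcf4. None of the marked motifs overlap.
Mgst2, chr3:51660929-51661228, plus strand: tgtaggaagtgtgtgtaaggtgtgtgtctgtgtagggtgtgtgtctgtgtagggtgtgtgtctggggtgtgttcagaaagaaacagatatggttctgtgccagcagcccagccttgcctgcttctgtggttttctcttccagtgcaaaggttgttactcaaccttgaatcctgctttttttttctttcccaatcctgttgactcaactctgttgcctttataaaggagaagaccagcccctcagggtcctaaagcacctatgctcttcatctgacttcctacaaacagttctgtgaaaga
Cyp4f18, chr8:72009577-72009876, minus strand: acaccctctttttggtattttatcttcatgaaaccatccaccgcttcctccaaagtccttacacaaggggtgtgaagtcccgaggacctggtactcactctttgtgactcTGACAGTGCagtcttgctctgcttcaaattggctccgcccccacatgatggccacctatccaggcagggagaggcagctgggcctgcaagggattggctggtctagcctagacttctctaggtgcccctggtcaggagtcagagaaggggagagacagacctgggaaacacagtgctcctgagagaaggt
Aldh1a2, chr9:71215539-71215838, plus strand: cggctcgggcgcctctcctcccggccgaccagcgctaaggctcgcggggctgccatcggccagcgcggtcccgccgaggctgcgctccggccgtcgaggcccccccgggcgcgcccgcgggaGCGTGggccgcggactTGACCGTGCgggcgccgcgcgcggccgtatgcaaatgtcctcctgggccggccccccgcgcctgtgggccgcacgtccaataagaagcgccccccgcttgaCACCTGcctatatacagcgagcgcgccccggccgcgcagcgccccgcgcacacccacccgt
Gsto1, chr19:47854723-47855022, plus strand: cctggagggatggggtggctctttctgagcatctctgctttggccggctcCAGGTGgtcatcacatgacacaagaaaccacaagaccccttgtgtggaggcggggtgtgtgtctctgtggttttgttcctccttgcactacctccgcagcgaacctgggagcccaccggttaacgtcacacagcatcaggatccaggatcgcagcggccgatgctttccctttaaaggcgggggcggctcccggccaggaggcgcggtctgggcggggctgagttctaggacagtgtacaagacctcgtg
The Mgst2 window held none of the motifs. That of Cyp4f18 held an antioxidant response element starting 140 bases before the gene start. The Aldh1a2 window held all 3, the xenobiotic core at 128, the antioxidant element at 112 and the E-box at 11 bases before the start. The Gsto1 window held the E-box at 200 bases before it. Of all 27025 genes with an entry, 12.5% held the antioxidant element, 32.5% the xenobiotic core and 20.0% the E-box, so such matches are common and mark no site.

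Higher in pDC than in both cDC subsets were a microsomal transferase, P450 enzymes of oxysterol and steroid metabolism and 4 aldehyde dehydrogenases. Mgst2, which conjugates leukotriene A4 with glutathione and reduces lipid peroxides, gave 23914 in pDC, 508 in CD8+ cDC and 302 in CD11b+ cDC. It was 47.1-fold higher in pDC than in CD8+ cDC and 79.1-fold higher than in CD11b+ cDC. Both folds rest on a single probe set, with no other listed for this gene alone. The CD11b+ cDC signal of Mgst2 lay below 412, the background at the 99th percentile of the receptor probe sets. With that background the fold against CD11b+ cDC has only a bound. The cDC arrays lay close together, 1.68-fold apart. Cyp7b1, the oxysterol 7-alpha-hydroxylase, gave 996 in pDC, 218 in CD8+ cDC and 92.9, below background, in CD11b+ cDC. It was 4.57-fold higher in pDC than in CD8+ cDC and at least 8.96-fold higher than in CD11b+ cDC, and a second probe set differed at least 7.10-fold in both pairs. Both genes passed 4-fold over the brighter cDC array, as 4.27% of all genes above background did in pDC. With background at the 99th percentile of the receptor probe sets, 412, both cDC arrays were below it for Cyp7b1, and its difference in both pairs had only a bound, 1.28 on the log2 scale.

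Aldh2, the mitochondrial enzyme that clears acetaldehyde, gave 54944 in pDC, 24815 in CD8+ cDC and 11443 in CD11b+ cDC. The pDC array was 2.21-fold above CD8+ cDC and 4.80-fold above CD11b+ cDC, but 3 other probe sets above background on all arrays differed 1.26-fold to 2.67-fold and 1.60-fold to 2.71-fold. The 2.17-fold difference between CD8+ and CD11b+ cDC, 1.12 on the log2 scale, became 0.12 with spike-in scaling. Aldh3b1, which oxidises aldehydes derived from membrane lipids, gave 10417.5, 4826 and 471 in pDC, CD8+ cDC and CD11b+ cDC. It was 2.16-fold higher in pDC than in CD8+ cDC and 22.1-fold higher than in CD11b+ cDC, and the cDC subsets differed 10.2-fold. Its signal on the CD11b+ cDC array was thus far below that on both others.

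Aldh6a1, a methylmalonate semialdehyde dehydrogenase of valine breakdown, gave 4008 in pDC, 1019 in CD8+ cDC and 926 in CD11b+ cDC, 3.93-fold and 4.33-fold higher in pDC. Aldh1b1, a mitochondrial relative of Aldh2, gave 4765 in pDC, 1495 in CD8+ cDC and 1465 in CD11b+ cDC, 3.19-fold and 3.25-fold higher in pDC. For both genes the cDC arrays lay within 1.10-fold of each other. Gstt2, a theta class transferase, gave 946 in pDC, 595 in CD8+ cDC and 312.5 in CD11b+ cDC, and only its 3.03-fold difference between pDC and CD11b+ cDC reached 2-fold. Among dim members Cyp11a1, the enzyme that starts steroid synthesis from cholesterol, read 287 in pDC and was below background in both cDC subsets (at least 2.58-fold). Of its other probe sets, 1 was at background on all arrays and 1 read 111.1, 111.6 and 110.0. In all, 7 members were at least 2-fold higher in pDC than in both cDC subsets, where 10.4% of all genes above background were. With spike-in scaling the member count was 8. For this and the later patterns over 3 arrays the shares of all genes are on the deposited scale. None is given with spike-in scaling, which moved the bulk of genes.

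The members that were lower in pDC than in both cDC subsets were Gsto1, Aldh1a2, Cyp4v3, Aldh16a1 and Gstt1, 5 genes, where 8.56% of all genes above background were; with spike-in scaling Gstt1 was no longer among them. Aldh1a2, which encodes the retinaldehyde dehydrogenase RALDH2, gave 167 in pDC, 3801 in CD8+ cDC and 1794 in CD11b+ cDC. It was 22.8-fold lower in pDC than in CD8+ cDC and 10.7-fold lower than in CD11b+ cDC. With background at the 99th percentile of the receptor probe sets, 412, the pDC array was below it. Both differences then had only bounds, -3.21 and -2.12 on the log2 scale. Aldh1a2 was also 2.12-fold higher in CD8+ than in CD11b+ cDC, a difference of 1.08 on the log2 scale that became 0.09 with spike-in scaling. Gsto1, an omega class enzyme that removes glutathione from proteins and reduces arsenic compounds, gave 6049 in pDC, 38763 in CD8+ cDC and 71087 in CD11b+ cDC. It was 6.41-fold lower in pDC than in CD8+ cDC and 11.8-fold lower than in CD11b+ cDC, and its second probe set gave 8.22-fold and 19.2-fold.

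Cyp4v3, a fatty acid hydroxylase whose human counterpart is mutated in Bietti crystalline dystrophy, gave 1616 in pDC, 7546 in CD8+ cDC and 5088 in CD11b+ cDC. It was 4.67-fold lower in pDC than in CD8+ cDC and 3.15-fold lower than in CD11b+ cDC, with 5.21-fold and 3.65-fold at its other probe set. Aldh16a1 gave 2817, 9862 and 6379 in pDC, CD8+ cDC and CD11b+ cDC, 3.50-fold and 2.26-fold lower in pDC. Gstt1, a theta class transferase of small halogenated compounds, gave 159 in pDC, 386 in CD8+ cDC and 503 in CD11b+ cDC, 2.43-fold and 3.17-fold lower in pDC. With background at the 99th percentile of the receptor probe sets, 412, its pDC and CD8+ cDC signals were both below it. That pair then had no difference to give, and the pair with CD11b+ cDC only a bound under 2-fold. Gstt2, which lies near Gstt1 in the genome, ran the other way, with its lowest signal in CD11b+ cDC. Cyp27a1 and Aldh18a1 were lower in pDC than in CD8+ cDC only. Cyp27a1, the mitochondrial sterol 27-hydroxylase, gave 30945 in pDC, 74076 in CD8+ cDC and 40621 in CD11b+ cDC, 2.39-fold lower in pDC than in CD8+ cDC. Aldh18a1, which makes the proline precursor pyrroline-5-carboxylate, gave 5579, 11629 and 7227, 2.08-fold lower. Neither of these pDC and CD8+ cDC differences, nor that of Gstt1, reached 2-fold with spike-in scaling, at -0.62, -0.42 and -0.64 on the log2 scale for Cyp27a1, Aldh18a1 and Gstt1.

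**Figure D3:**
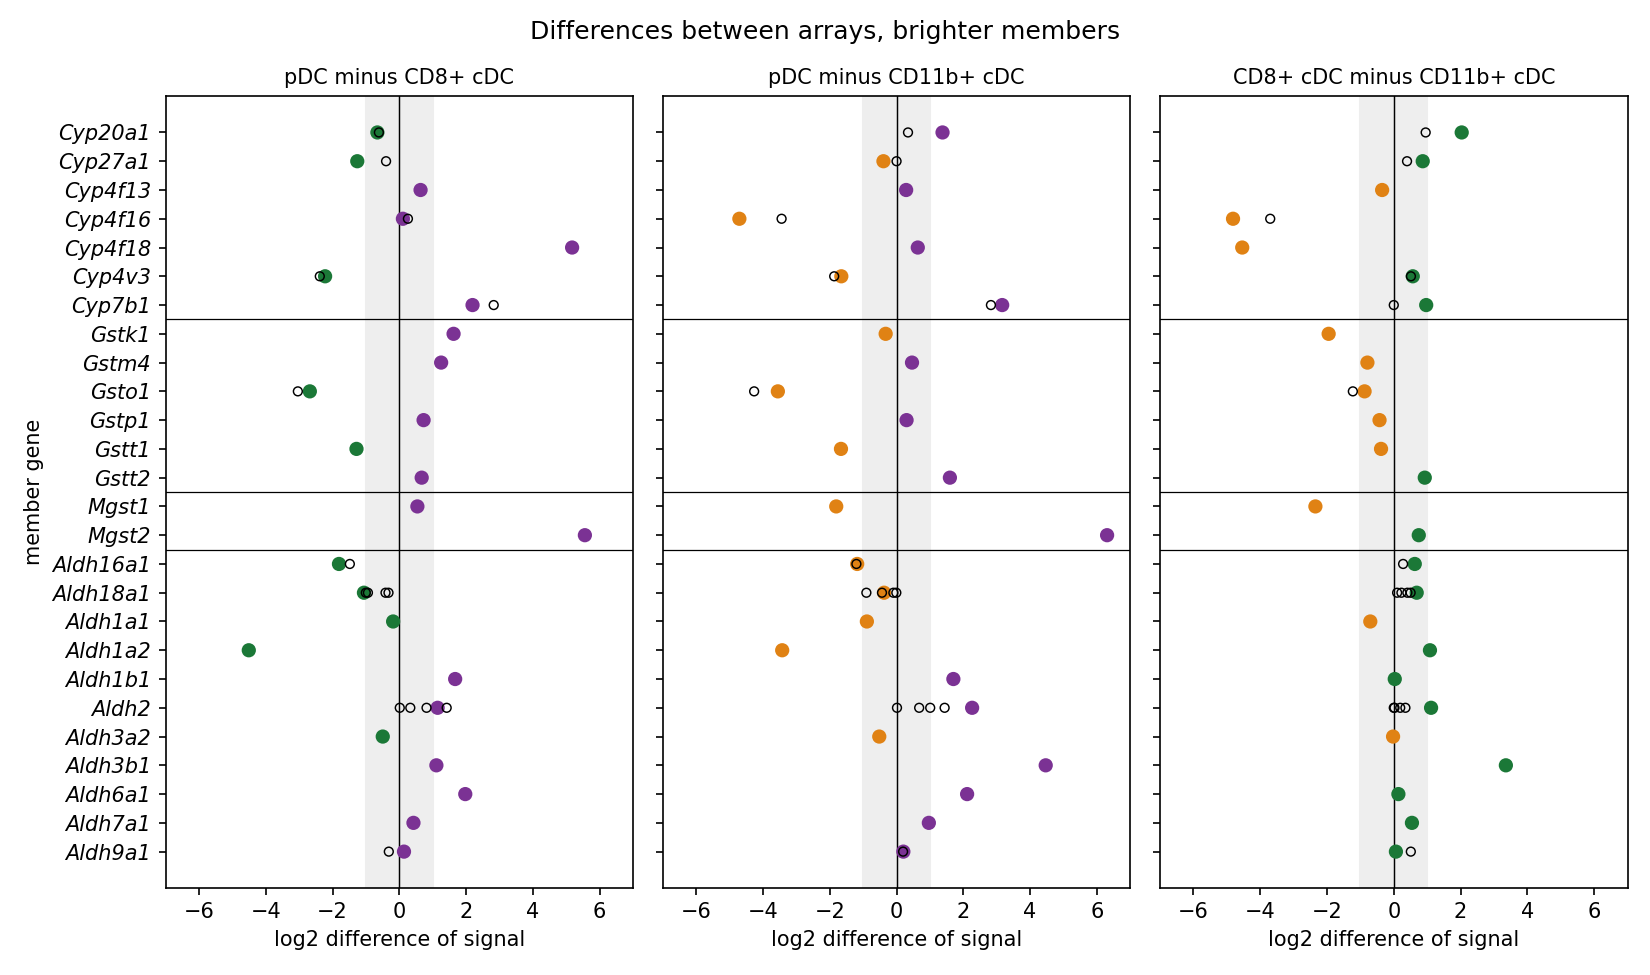
Log2 difference of signal (horizontal axis) in the 3 pairs for the 26 brighter members. Filled points are the probe set taken, coloured by the cell type that is higher (pDC purple, CD8+ cDC green, CD11b+ cDC orange), open points are other probe sets of the gene above background on any array, values below background are set to it and give bounds, and the grey band marks differences under 2-fold. Mgst2 lies at 5.56 and 6.31 in the pDC pairs and Cyp4f16 at -4.71 and -4.81 in the CD11b+ cDC pairs, whereas the 4 probe sets of Aldh2 above background on all arrays range from 0.68 to 2.26 for pDC minus CD11b+ cDC.

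Members of the P450 family 4, whose enzymes oxidise the ends of fatty acids and leukotrienes, gave the sharpest contrasts between the cDC subsets. Cyp4f16 gave 6924 in pDC, 6428 in CD8+ cDC and 180909 in CD11b+ cDC. It was 26.1-fold lower in pDC and 28.1-fold lower in CD8+ cDC than in CD11b+ cDC, and the pDC and CD8+ cDC arrays differed 1.08-fold. A second probe set gave 133 in pDC, 96.9 in CD8+ cDC and 1445 in CD11b+ cDC. It was the 1 member at least 4-fold higher in CD11b+ cDC than in the brighter other array, as were 2.02% of all genes above background, and no member passed this rule in CD8+ cDC (2.42% of all genes). Cyp4f18, which in mouse neutrophils oxidises leukotriene B4, gave 6221 in pDC, 172 in CD8+ cDC and 4003 in CD11b+ cDC. It was 36.1-fold higher in pDC than in CD8+ cDC and 23.2-fold lower in CD8+ than in CD11b+ cDC. The pDC and CD11b+ cDC arrays differed 1.55-fold. Another Cyp4f18 probe set was at background on all arrays (67, 66.8 and 66.3). The CD8+ cDC signal of 172 lay below 412, the background at the 99th percentile of the receptor probe sets. With that background both folds against CD8+ cDC have only a bound. Cyp4f13 differed by less than 2-fold in every pair (805, 518 and 659 in pDC, CD8+ cDC and CD11b+ cDC) on the deposited scale, and was at least 2-fold lower in CD8+ cDC than in both others with spike-in scaling. The highest array was thus not the same for all Cyp4f genes.

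Mgst1, a microsomal transferase of the endoplasmic reticulum and outer mitochondrial membrane, gave 214 in pDC, 147 in CD8+ cDC and 748 in CD11b+ cDC. It was 3.50-fold lower in pDC and 5.09-fold lower in CD8+ cDC than in CD11b+ cDC. Its other probe set was at background on all arrays (56.5, 56.9 and 56.1). With background at the 99th percentile of the receptor probe sets, 412, the pDC and CD8+ cDC arrays were below background, and both differences had only a bound, -0.86 on the log2 scale, which is under 2-fold. With Cyp4f16 it made 2 members at least 2-fold higher in CD11b+ cDC than in both other subsets (5.00% of all genes above background). With spike-in scaling 5 members were, and no share of all genes is given for it. That scaling moved the median of all genes to -0.30 for pDC minus CD11b+ cDC and -0.95 for CD8+ minus CD11b+ cDC. Neutrophil and macrophage markers were also higher in CD11b+ cDC, where Mgst1 and Cyp4f16 were. In CD11b+ cDC 5 of 6 neutrophil markers were at least 2-fold higher than in pDC and 5 of 6 higher than in CD8+ cDC. Of 9 macrophage and monocyte markers, 6 were higher than in pDC and 4 higher than in CD8+ cDC. The shares of all genes were 14.3% against pDC and 10.3% against CD8+ cDC. Cyp4f18 was higher in pDC than in CD8+ cDC, where 3 of 6 neutrophil markers were higher and 0 lower in pDC. Of the 9 macrophage and monocyte markers 0 were higher and 2 lower in pDC. In this pair 16.0% of all genes were higher and 14.8% lower in pDC. Cyp4f18 gave 6221 in pDC and 4003 in CD11b+ cDC, whereas 5 of 6 neutrophil markers were higher in CD11b+ cDC. The part of other cell types in these signals was not tested.

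Gstk1, the kappa class transferase of mitochondria and peroxisomes, gave 1471 in pDC, 477 in CD8+ cDC and 1844 in CD11b+ cDC, 3.08-fold higher in pDC than in CD8+ cDC and 3.87-fold lower in CD8+ than in CD11b+ cDC. Gstm5, a mu class gene, had the same shape at low signal, with 417, 208 and 424. With Cyp4f18, these made 3 members at least 2-fold lower in CD8+ cDC than in both other subsets, where 4.34% of all genes above background were. With spike-in scaling the member count was 6, and no share of all genes is given for it. Gstm4, another mu class transferase, gave 1643, 689.5 and 1192 in pDC, CD8+ cDC and CD11b+ cDC, and its 2.38-fold difference between pDC and CD8+ cDC was the only call.

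Higher in CD8+ cDC than in both other subsets were Aldh1a2 and the dim genes Cyp8b1 and Cyp2s1, 3 members, where 6.01% of all genes above background were. With spike-in scaling the member count was 0, and no share of all genes is given for it. Both dim genes were below 412, the background at the 99th percentile of the receptor probe sets, on all arrays. Cyp8b1, the sterol 12-alpha-hydroxylase of bile acid synthesis, read 53.9 in pDC, 410.0 in CD8+ cDC and 53.6 in CD11b+ cDC, at least 3.69-fold higher in CD8+ cDC. Cyp2s1, an extrahepatic P450 induced through the aryl hydrocarbon receptor, read 66.3, 268 and 133. Cyp20a1, a P450 with no known substrate, gave 13008 in pDC, 20512.5 in CD8+ cDC and 5008 in CD11b+ cDC, a 2.60-fold difference between pDC and CD11b+ cDC and a 4.10-fold difference between the cDC subsets, and 1.27-fold and 1.94-fold at a dimmer probe set. With Aldh2 and Aldh3b1 it made 3 members at least 2-fold lower in CD11b+ cDC than in both other subsets, as were 2.98% of all genes above background. With spike-in scaling the member count was 2, again without a share of all genes.

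The 6 brighter members under 2-fold in every pair were Gstp1, Aldh9a1, Aldh3a2, Aldh7a1, Aldh1a1 and Cyp4f13. Gstp1, the pi class transferase, gave 53122 in pDC, 32101 in CD8+ cDC and 43151 in CD11b+ cDC. Aldh9a1, an enzyme of carnitine synthesis, gave 43554, 39530.4 and 37819, at most 1.15-fold apart. Its other probe set gave 10686, 13293 and 9334, at most 1.42-fold apart and brightest in CD8+ cDC. Aldh3a2, the fatty aldehyde dehydrogenase, gave 4989, 7037 and 7143, and Aldh7a1, an enzyme of lysine breakdown, 2822, 2105 and 1443.5. Aldh1a1, a retinaldehyde dehydrogenase like Aldh1a2, gave 244 in pDC, 277 in CD8+ cDC and 451.5 in CD11b+ cDC. With spike-in scaling every one of these but Aldh9a1 reached 2-fold in some pair. The 15 dim members had a highest signal between 111.3 and 424, and 4 of them (Cyp11a1, Cyp2s1, Cyp8b1 and Gstm5) reached 2-fold. None of these calls held with background at the 99th percentile of the receptor probe sets, 412. Cyp11a1, Cyp2s1 and Cyp8b1 were then below it on all arrays, and Gstm5 differed by less than 2-fold.

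A second probe set above background was available for 11 members. Its log2 difference departed from that of the first with an SD of 0.64 for pDC and CD8+ cDC, 0.82 for pDC and CD11b+ cDC and 0.63 for the cDC subsets, against 0.91, 0.87 and 0.75 over 4966 genes. Where the first probe set gave a call, it recurred at the other for 4 of 8, 5 of 8 and 1 of 3 members, with 0 opposite calls in each pair. This spread is between probes on an array and says nothing of the spread between mice. Probe sets at background on all arrays were not counted here, such as the other of Cyp4f18 and of Mgst1 and 1 each of Cyp7b1 and Cyp20a1.

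Retinoid genes around Aldh1a2 ran in both directions. This list and the gene lists of the next paragraphs were chosen with earlier results of these data known. Of the 27 measured genes of the retinoid pathway, 12 were above background for pDC and CD8+ cDC. Of them 3 were higher and 3 lower in pDC (median log2 difference 0.16), beside 16.0% and 14.8% of all genes. For pDC and CD11b+ cDC 13 were above background, with 4 higher and 3 lower in pDC (0.16), beside 15.0% and 14.3%. For CD8+ and CD11b+ cDC 13 were, with 1 higher and 4 lower in CD8+ cDC (-0.28), beside 9.84% and 10.3%. With spike-in scaling the pairs gave 5 and 1, 1 and 3, and 0 and 10. Over all genes that scaling gave 3383 higher and 976 lower of 10067 for pDC against CD8+ cDC. It gave 1132 and 2127 of 10686 for pDC against CD11b+ cDC, and 405 and 4773 of 10512 for CD8+ against CD11b+ cDC. These all-gene counts, not the shares above, go with the spike-in counts of this list and of the lists that follow. Rdh12, a retinal reductase, gave 1422 in pDC, 145 in CD8+ cDC and 323 in CD11b+ cDC, whereas Dhrs3, which also reduces retinaldehyde, gave 196, 1152 and 3181. Rdh10, which oxidises retinol to retinaldehyde, gave 2622, 2241 and 2345. The retinoic acid hydroxylase genes Cyp26a1 and Cyp26b1 were at background on all arrays. Of the vitamin D enzymes, Cyp24a1 and Cyp27b1 were at background and Cyp2r1 read 267, 212 and 186, and the receptor gene Vdr was at background.

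Genes of arachidonic acid metabolism were more often lower than higher in pDC by count. Of 10 above background for pDC and CD8+ cDC, 6 were lower and 1 higher in pDC (median log2 difference -1.30), beside 14.8% lower and 16.0% higher of all genes, or 4 and 1 with spike-in scaling. Of 11 for pDC and CD11b+ cDC, 7 were lower and 0 higher (-1.19), beside 14.3% lower and 15.0% higher of all genes, or 8 and 0 with spike-in scaling. Between CD8+ and CD11b+ cDC 6 were lower and 2 higher (-1.02), beside 10.3% and 9.84% of all genes, or 8 and 2 with spike-in scaling. The 2 were Ptgis and Tbxas1, prostacyclin and thromboxane synthases that are themselves P450 enzymes under other symbols. Ptgis gave 202 in pDC, 19739 in CD8+ cDC and 316 in CD11b+ cDC, and Tbxas1 gave 242, 4798 and 679. Ltc4s, the leukotriene C4 synthase related to the microsomal transferases, was at background on all arrays, as was the 5-lipoxygenase gene Alox5, while its partner Alox5ap gave 200686, 162646 and 177387. Lta4h, which makes leukotriene B4, gave 8599, 11151 and 34345 in pDC, CD8+ cDC and CD11b+ cDC.

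In the sterol list, 2 of the 7 genes above background were higher and 1 lower in pDC than in CD8+ cDC, and 4 were higher and 1 lower than in CD11b+ cDC. With spike-in scaling the counts were 4 higher and 1 lower, and 3 higher and 2 lower. On the deposited scale the shares of all genes were 16.0% higher and 14.8% lower for pDC against CD8+ cDC. They were 15.0% and 14.3% for pDC against CD11b+ cDC, for this list and those that follow. Ch25h, which makes the 25-hydroxycholesterol that Cyp7b1 acts on, was at background. Hsd3b7, the next enzyme after Cyp7b1, gave 5433 in pDC, 25132 in CD8+ cDC and 2589 in CD11b+ cDC. Gpr183, the receptor for the Cyp7b1 product, gave 10729, 1052 and 20966, so its lowest signal was in CD8+ cDC. Hsd11b1, which regenerates active glucocorticoid, gave 13947 in pDC, 109 (below background) in CD8+ cDC and 142 in CD11b+ cDC.

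Of 11 electron donors and heme genes serving P450 enzymes, 5 were lower and 0 higher in pDC than in CD8+ cDC, and 2 lower and 0 higher than in CD11b+ cDC; with spike-in scaling the pairs gave 2 lower and 3 higher, and 4 lower and 0 higher. Cyb5r1, a cytochrome b5 reductase, gave 3121 in pDC, 44745 in CD8+ cDC and 4292 in CD11b+ cDC, and Cyb5r3 gave 17518, 46836 and 76001. Of 22 measured glutathione enzymes, 18 were above background in each pair with pDC. Of these 1 was higher and 5 lower in pDC than in CD8+ cDC, and 4 were higher and 4 lower than in CD11b+ cDC. With spike-in scaling the pairs gave 8 higher and 3 lower, and 2 higher and 4 lower. Gclc, the rate-limiting subunit of glutathione synthesis, gave 2802 in pDC, 48341 in CD8+ cDC and 2944 in CD11b+ cDC, and Ggt5, which cleaves glutathione and leukotriene C4 outside the cell, gave 70.5 (below background), 556 and 5026. Among 22 measured genes of the aryl hydrocarbon receptor and Nrf2 pathways, 18 were above background for pDC and CD8+ cDC. Of these 1 was higher and 5 lower in pDC. For pDC and CD11b+ cDC 19 were above background, with 2 higher and 4 lower in pDC. With spike-in scaling the counts were 3 and 4, and 1 and 6. The receptor gene Ahr gave 3705 in pDC, 58965 in CD8+ cDC and 29067 in CD11b+ cDC. Of P450 genes, Cyp1a1 and Cyp1b1 were at background, and Cyp2s1 read 66.3, 268 and 133. Among other genes of the list, Ahrr, the repressor of the receptor, was at 516 in CD11b+ cDC and at background in pDC and CD8+ cDC. Tiparp gave 6289, 6116 and 5398, and Nqo1 was at background on all arrays (78.8, 77.9 and 75.9). Nfe2l2, encoding Nrf2, gave 23510.4, 18877 and 14837.

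Windows of members above background held more CpG than those of members at background. The ratio of observed to expected CpG in the 300-base window had a median of 0.41 over 36 members above background on any array and 0.16 over 49 members at background. All genes showed the same order at higher values, 0.77 for 8977 above background and 0.38 for 5391 at background. Aldh1a2, at 1.11, was the highest of the members, and Mgst2, with no CpG in its window, was at 0. The antioxidant response element was in 7 of the 36 windows (19.4%) and in 3 of the 49 (6.12%), against 14.9% and 13.0% of all genes above and at background. The xenobiotic core was in 14 of the 36 (38.9%) and 11 of the 49 (22.4%), against 51.8% and 31.7%. The E-box was in 10 of the 36 (27.8%) and 10 of the 49 (20.4%), against 17.3% and 23.6%.

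**Figure D4:**
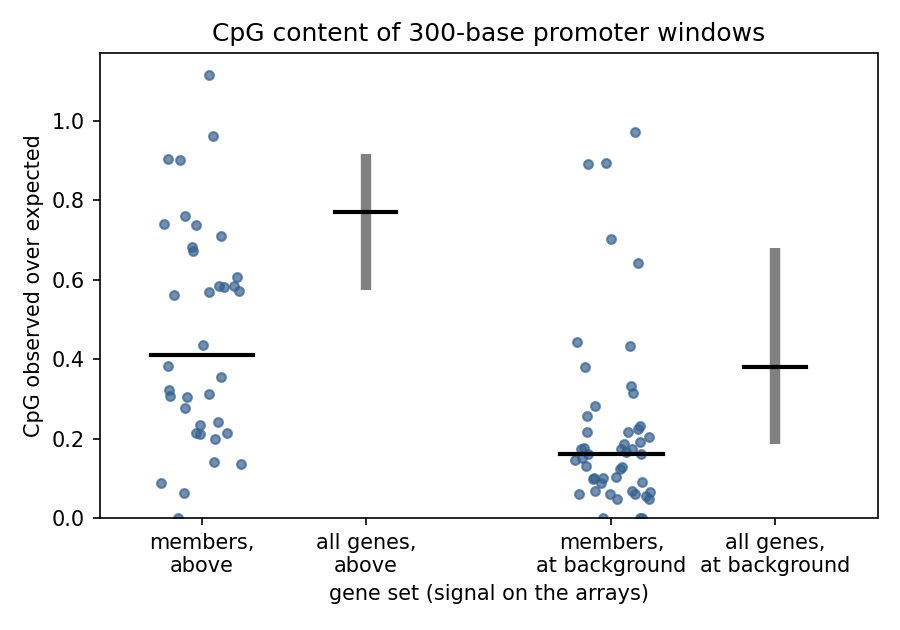
Observed over expected CpG (vertical axis) in the window from 250 bases before to 50 after the gene start, for 36 members above background, all genes above background, 49 members at background and all genes at background. Points are members, black lines medians (0.41, 0.77, 0.16 and 0.38) and grey bars the interquartile range of all genes.

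Many members lie side by side in the genome (order of protein-coding genes in GRCm38.p6). Of 19 runs of adjacent members holding 54 genes, 9 runs with 23 genes had no member above background and 9 had some but not all. The mu class run Gstm5, Gstm7, Gstm6, Gstm3, Gstm2, Gstm1 and Gstm4 had 4 of 7 above background, of which only Gstm4 reached 4 times that level. Gsto1 lay next to Gsto2, which was at background on all arrays, and Aldh3a2 next to Aldh3a1, also at background. The Cyp2c and Cyp2d runs had none above background. Such copies are close in sequence, so a probe set can pick up a neighbour's transcript, and the values of mu class and Cyp2 genes are uncertain in this respect.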

How the data were processed

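RNA from 3 sorted spleen DC populations was measured on 1 Affymetrix mouse expression array each, after 2 rounds of amplification, per the labels' protocols. The deposited intensity values are linear signals that the authors made with MAS5, per the submitters' processing notes; the sources used here give no further scaling step. No reads were counted, so the number of arrays limits the precision. Genes were named from the platform annotation through gene numbers; 34958 of 45101 probe sets list a single gene, and all 114 member genes were found by number. Members were taken by symbol, using no signal, but earlier results of these data were known when members and companion lists were chosen. Named are members above background, with all 3 values for those reaching 4 times background, and genes of the fixed lists.

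Values below background (the 95th percentile of 87 receptor probe sets on the highest array, 111) were set to it before log2 differences were taken. With 1 array per cell type a call means a 2-fold difference with the brighter array above background, and no p-value was computed. The calling step was tested on simulated data with small noise and with changes well above 2-fold placed only in bright genes. That checks the code and gives no error rate for calls near 2-fold or near background. Alternatives were background at the 99th percentile or median, spike-in scaling, quantile normalization, other rules for probe sets and a 3-fold rule. Promoter windows are RefSeq's; 29 members had no entry. Genes such as Por and Ptgs1 were not analysed here. Python 3.11.15, pandas 2.3.3, numpy 2.4.6 and matplotlib 3.10.9 were used.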

Additional observations from a re-analysis of the deposited data

How the results depend on the processing

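No paired analysis was possible because each cell type has 1 array. Among the 26 brighter members no difference of 2-fold or more changed sign under the alternatives run. Differences under 2-fold did, 15 with spike-in scaling (the largest 0.93 on the log2 scale, Gstt2 for CD8+ minus CD11b+ cDC, which became -0.07) and 1 with the mean of probe sets (Aldh9a1 for pDC minus CD8+ cDC, 0.14, which became -0.09). Of 39 calls among the brighter members, 39 stayed at least 2-fold with background at the median, without _s_at and _x_at probe sets and after quantile normalization, 34 with spike-in scaling, 34 with the mean of a gene's probe sets, and 35 of 38 with background at the 99th percentile. The mean of probe sets ended the calls of Cyp27a1 (-0.83), Aldh18a1 (-0.75) and Aldh2 (0.74) for pDC minus CD8+ cDC, of Cyp20a1 (0.86) for pDC minus CD11b+ cDC and of Aldh2 (0.34) for CD8+ minus CD11b+ cDC, all on the log2 scale. Spike-in scaling moved the median of the members to 0.76 for pDC minus CD8+ cDC and to -0.67 for CD8+ minus CD11b+ cDC. With background at the median of the receptor probe sets 85, 85 and 83 members exceeded it in pDC, CD8+ cDC and CD11b+ cDC, and at their 99th percentile 23 did in pDC and 21 in CD8+ cDC. Of all 18194 genes, 16083 exceeded the median level in pDC or CD8+ cDC, and 9170 the 99th percentile. That stricter level left 7 member calls between CD8+ and CD11b+ cDC, and the 3-fold rule left 7 there and 11 between pDC and CD8+ cDC. Over all genes the stricter level gave 917 higher and 910 lower of 9001 between CD8+ and CD11b+ cDC. The 3-fold rule gave 571 and 593 of 10709 there, and 1033 and 1041 of 10823 between pDC and CD8+ cDC. The causes of these shifts beyond the construction of each alternative were not tested.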
